A study of Drosophila melanogaster with 2 samples.

Results

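Occupancy by l(3)neo38, a zinc finger protein, was described at 8 Drosophila genes that encode insulator and architectural proteins, of 13945 protein-coding genes on the 6 chromosome arms. The genes were named as a list from their known functions: the DNA-binding insulator proteins CTCF, BEAF-32 and su(Hw), the bridging cofactors Cp190 and mod(mdg4), the polytene interband proteins Chro and pzg, and the cohesin subunit vtd. Chromatin immunoprecipitation with sequencing was done with an antibody to GFP on whole embryos of 0 to 24 h, both sexes together, from 1 transgenic line that stably carries l(3)neo38 with GFP fused at its C-terminal end. The 2 biological replicates form 1 group, both carry the transgene, and chromatin was sonicated to 200 to 800 bp. Whole embryos mix many cell types and stages, so a weak peak in all cells and a strong peak in few cells cannot be told apart. Untagged embryos and other conditions were not analysed here, so values are compared between lists, between genes and with the genome, and no condition is tested.

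Insulator proteins bind short DNA sites that can keep an enhancer from acting on a promoter or mark the border of a chromatin domain. In Drosophila, the DNA-binding members recruit Cp190 and mod(mdg4), which carry BTB domains and bring distant sites together. Chro and pzg act together at the open interbands of polytene chromosomes, and cohesin, of which vtd is the kleisin subunit, holds sister chromatids and loops together.

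Peaks of the l(3)neo38 fusion lay at 3 of the 8 genes. A thresholded peak is one of the 3953 in the list the authors kept after their irreproducible discovery rate procedure, not all of which had an entry in both replicates, and a gene was counted when such a summit lay in its body or within 2 kb. Chro, Cp190 and mod(mdg4) were the 3 genes, with 1 summit each. The share of 37.5% stood beside 18.3% of all protein-coding genes, and the median length of the 8 genes was 4.511 kb against 2.166 kb for all, with BEAF-32 the shortest at 2.162 kb. With promoters defined as 500 bp around any annotated transcript start, Chro and Cp190 were promoter-bound, 2 of 8 or 25% beside 8.24% of all protein-coding genes. CTCF, BEAF-32, su(Hw), pzg and vtd had no thresholded summit.

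Sequences at the 3 peaks, and at an entry of replicate 1 inside mod(mdg4), are shown on the dm6 build, 5′ to 3′ along the named strand. Only the stretch outside transcribed exons is printed. At Chro the summit itself lies just inside the outermost transcript, Chro-RE. The 104 bases between the outermost start of Chro and that of its divergent neighbour Ssl1 are therefore shown (3L:22878985-22879088, minus strand). Capitals there mark the 67 bases inside the peak interval. The printed Chro bases lie outside the summit window used below for base composition and motifs. Their GC content was 51.0% and they hold no CGATA, unlike that window. In the other sequences capitals mark the summit base with 10 bases to either side. The Cp190 stretch is 3R:15275305-15275519, minus strand, and the mod(mdg4) stretch is 3R:21378776-21378976, minus strand. The replicate 1 entry inside mod(mdg4) lies in 3R:21365489-21365608, shown on the plus strand.
Chro: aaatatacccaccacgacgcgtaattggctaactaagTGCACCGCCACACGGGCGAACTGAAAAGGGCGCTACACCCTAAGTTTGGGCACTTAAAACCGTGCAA
Cp190: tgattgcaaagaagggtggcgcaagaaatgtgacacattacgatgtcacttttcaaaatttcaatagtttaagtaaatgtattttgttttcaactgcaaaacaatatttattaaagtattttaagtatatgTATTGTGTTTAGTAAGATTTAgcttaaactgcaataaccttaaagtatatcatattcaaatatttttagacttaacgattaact
mod(mdg4) upstream: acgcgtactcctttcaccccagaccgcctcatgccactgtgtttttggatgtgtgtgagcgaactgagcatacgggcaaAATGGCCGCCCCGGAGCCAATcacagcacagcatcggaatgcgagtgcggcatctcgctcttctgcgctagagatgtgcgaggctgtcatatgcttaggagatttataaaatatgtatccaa
mod(mdg4) internal: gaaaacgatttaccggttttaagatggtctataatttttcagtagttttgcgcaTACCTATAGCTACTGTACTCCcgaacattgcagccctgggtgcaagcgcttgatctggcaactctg

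Base composition differed among the 3 summits. In the window of 50 bp to either side of the summit, GC content was 20.8% at Cp190, 31.7% at Chro and 56.4% at mod(mdg4). The median over all 3953 thresholded summit windows was 50.5%, and over windows 350 bp to either side it was 41.6%. The Cp190 and Chro windows were thus poorer in GC than the typical flank, and the mod(mdg4) window was richer than the typical summit. For Chro the value rose with the window, to 38.3% at 100 bp to either side and 42.2% over the whole peak. At Cp190 the same values were 23.4% and 21.3%, and at mod(mdg4) 52.7% and 54.2%. Medians over all peaks were not computed for these wider windows.

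**Figure D1:**
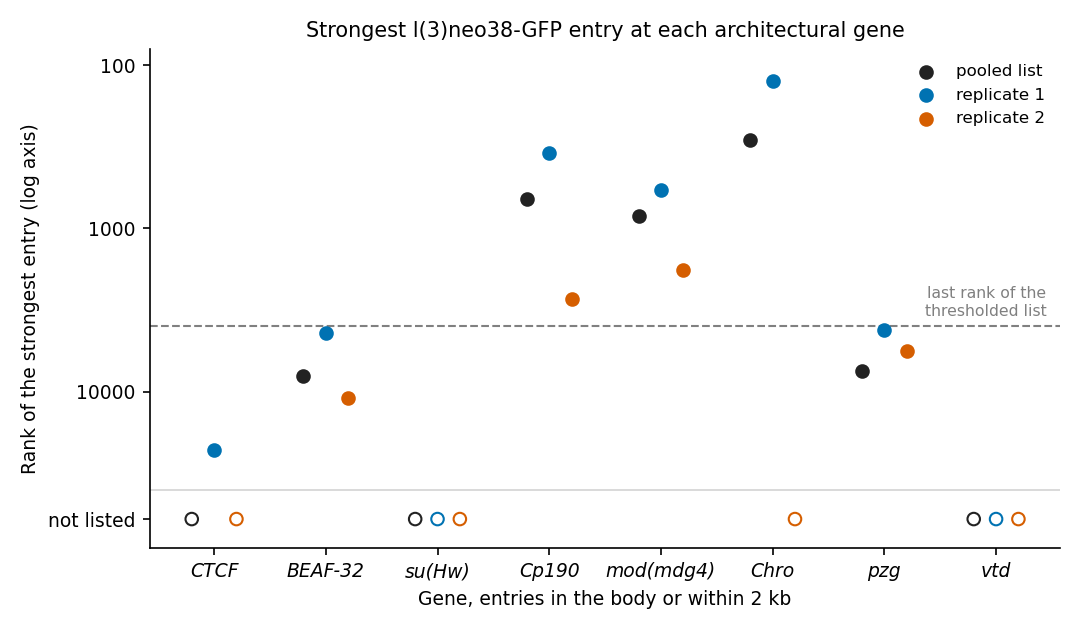
Rank of the strongest entry in the body or within 2 kb of each gene, on a log axis with rank 1 towards the top, in the pooled list (black), replicate 1 (blue) and replicate 2 (orange). Open circles stand for genes with no entry, and the dashed line is the last of the 3953 ranks of the thresholded list. Chro, Cp190 and mod(mdg4) lie above the line in the pooled list and in replicate 1. In replicate 2, Cp190 and mod(mdg4) lie above it and Chro has no entry.

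The 4 deposited lists on dm6 stand behind these values. Each replicate and the pooled alignments gave 30000 entries that include background, with the signal value as the authors' measure of peak strength and rank 1 as the largest. The 3953 thresholded peaks were the strongest entries of the pooled list, with signal from 140.7 to 3625 and a median of 209.6. Signal scales differ between lists, so replicates are compared by rank, after matching summits within 100 bp. Of the 3953 peaks, 118 had no match in replicate 1 and 248 had none in replicate 2. No read counts were given, so depth is unknown and no value has an interval.

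Among the interband protein genes, Chro held the strongest peak of the 8. Chro encodes Chromator (gene FBgn0044324, 3L:22873702-22878984, minus strand), a chromodomain protein that recruits partners to interbands and spindles. Its peak spans 3L:22878801-22879051 and its summit, at 22878910, lies 74 bp inside the 5′ UTR of the outermost transcript, Chro-RE. The divergent start of Ssl1, which encodes a subunit of the general transcription factor TFIIH, lies farther along the same side of the summit, 179 bp away. The summit is thus inside Chro-RE and not between the Chro-RE and Ssl1 starts, and the peak interval ends short of the Ssl1 start. Chro-RB, Chro-RC and Chro-RD start at 22878768 and Chro-RA at 22878184, so the whole peak lies upstream of those starts. The Chro-RE and Ssl1 starts are both within 500 bp of the summit, so both genes count as promoter-bound. In the pooled list the signal was 510.4 at rank 289. Replicate 1 had a signal of 408 at rank 125, with its summit 5 bp away. Replicate 2 listed no entry at Chro at all, and its nearest entry lay 11.432 kb from the gene body. Within 50 kb of Chro, replicate 2 held 22 entries.

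A strong peak with no match in replicate 2 was uncommon. Over the whole thresholded list 6.27% of peaks had none within 100 bp, and 1 of the 3 summits at the 8 genes was of this kind. Among the 289 peaks at least as strong as that at Chro, 3 had none, or 1.04%. The starts nearest to those summits belonged to Tcs5 at rank 132, mir-34 at rank 225 and Chro, and all 3 were promoter summits. Among the 1149 promoter-bound genes Chro stood in place 117, in the top 10.2%, by the signal of its strongest promoter summit.

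The other interband gene, pzg, had weak entries only. It encodes Putzig (FBgn0259785, 3L:21286099-21290310, plus strand), which acts with Chro and with the nucleosome remodeller NURF. The pooled list held 1 entry, signal 92.5 at rank 7447, with its summit 412 bp upstream of the start and inside the 5′ UTR exon of the neighbour CG12974. Replicate 1 listed 2 entries. The stronger had a signal of 78.0 at rank 4191 and lay 69 bp upstream of the pzg start, and the weaker had a signal of 51.2 at rank 7916. Replicate 2 listed 3, with signals of 56.0, 24.1 and 20.2 at ranks 5609, 21258 and 26885. The strongest entry therefore lay at a different position in each list. Other entries did match within 100 bp. The replicate 2 entry of 24.1 lay 44 bp upstream of the pzg start, 25 bp from the stronger entry of replicate 1. The pooled entry had matches 29 bp away in replicate 1 and 42 bp away in replicate 2. The nearest thresholded summit was 9.023 kb from the gene, at rank 183 with a signal of 596, and the nearest start to it was that of AcCoAS.

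Of the bridging cofactors, Cp190 had its peak in its own promoter. Cp190 (FBgn0000283, 3R:15270432-15275241, minus strand) encodes a BTB and zinc finger protein that joins most insulator complexes in the fly. The peak, 3R:15275325-15275479, spans 155 bp and no annotated exon. Its summit at 15275378 lies 137 bp upstream of the Cp190 start and 144 bp upstream of the divergent start of CG4338, near the middle of the gap. The pooled signal was 364.8 at rank 658. Replicate 1 gave 278 at rank 347, with the summit 59 bp away, and a second entry of 96.1 at rank 2957 on the CG4338 start itself. Replicate 2 gave 84.3 at rank 2707, with the summit 4 bp away, and a further entry of 19.1 at rank 28917 in a coding exon of MRG15. Cp190 thus ranked much higher in replicate 1 than in replicate 2. The log2 ratio of its ranks, replicate 2 over replicate 1, was 2.96, and 1.75% of the 3595 peaks matched in both replicates had a larger one, while their median was -0.03. By promoter signal Cp190 stood in place 262 of 1149, in the top 22.8%.

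The summit counted for mod(mdg4) lies nearer to another gene. mod(mdg4) (FBgn0002781, 3R:21350846-21377401, minus strand) encodes BTB proteins, among them the partner of su(Hw) at the gypsy insulator, and its 22 annotated transcripts share 1 start. The summit at 21378887 lies 1486 bp upstream of that start and 90 bp upstream of tin, the tinman gene of heart and dorsal mesoderm, which is transcribed away from mod(mdg4). It is a promoter summit of tin and not of mod(mdg4). The pooled signal was 326 at rank 833. Replicate 1 gave 225 at rank 581, with its summit 19 bp away, and replicate 2 gave 104 at rank 1802, with its summit 8 bp away. The peak was present in both replicates and again ranked higher in replicate 1, with a log2 rank ratio of 1.63, exceeded by 9.60% of matched peaks. Cp190 ranked above mod(mdg4) in the pooled list and in replicate 1 and below it in replicate 2. The order of these peaks thus did not hold across replicates.

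A strong entry inside the mod(mdg4) body was listed in replicate 1 only. Its summit at 21365553 had a signal of 184 at rank 913, and neither the pooled list nor replicate 2 listed an entry there. It lies between oppositely directed starts of the pre-mod(mdg4) genes. mod(mdg4) is known for trans-splicing, in which the shared 5′ exons are joined to 3′ exons made from separate transcripts, some of them from the opposite strand. The annotation places 23 pre-mod(mdg4) genes in the body, 9 on the plus strand and 14 on the minus strand, and 10 of them have a start within 500 bp of this summit. Of these, 7 begin at the same base, 56 bp away, on the plus strand, and pre-mod(mdg4)-E begins 65 bp away on the minus strand. Of the 3953 strongest entries of replicate 1, 6.65% had no pooled entry within 100 bp. Of the 913 entries at least as strong as this one, 33 had none, or 3.61%. The remaining pooled entry near mod(mdg4) had a signal of 90.03 at rank 7713 and lay in the 5′ UTR of aus, beyond the 3′ end of the gene.

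**Figure D2:**
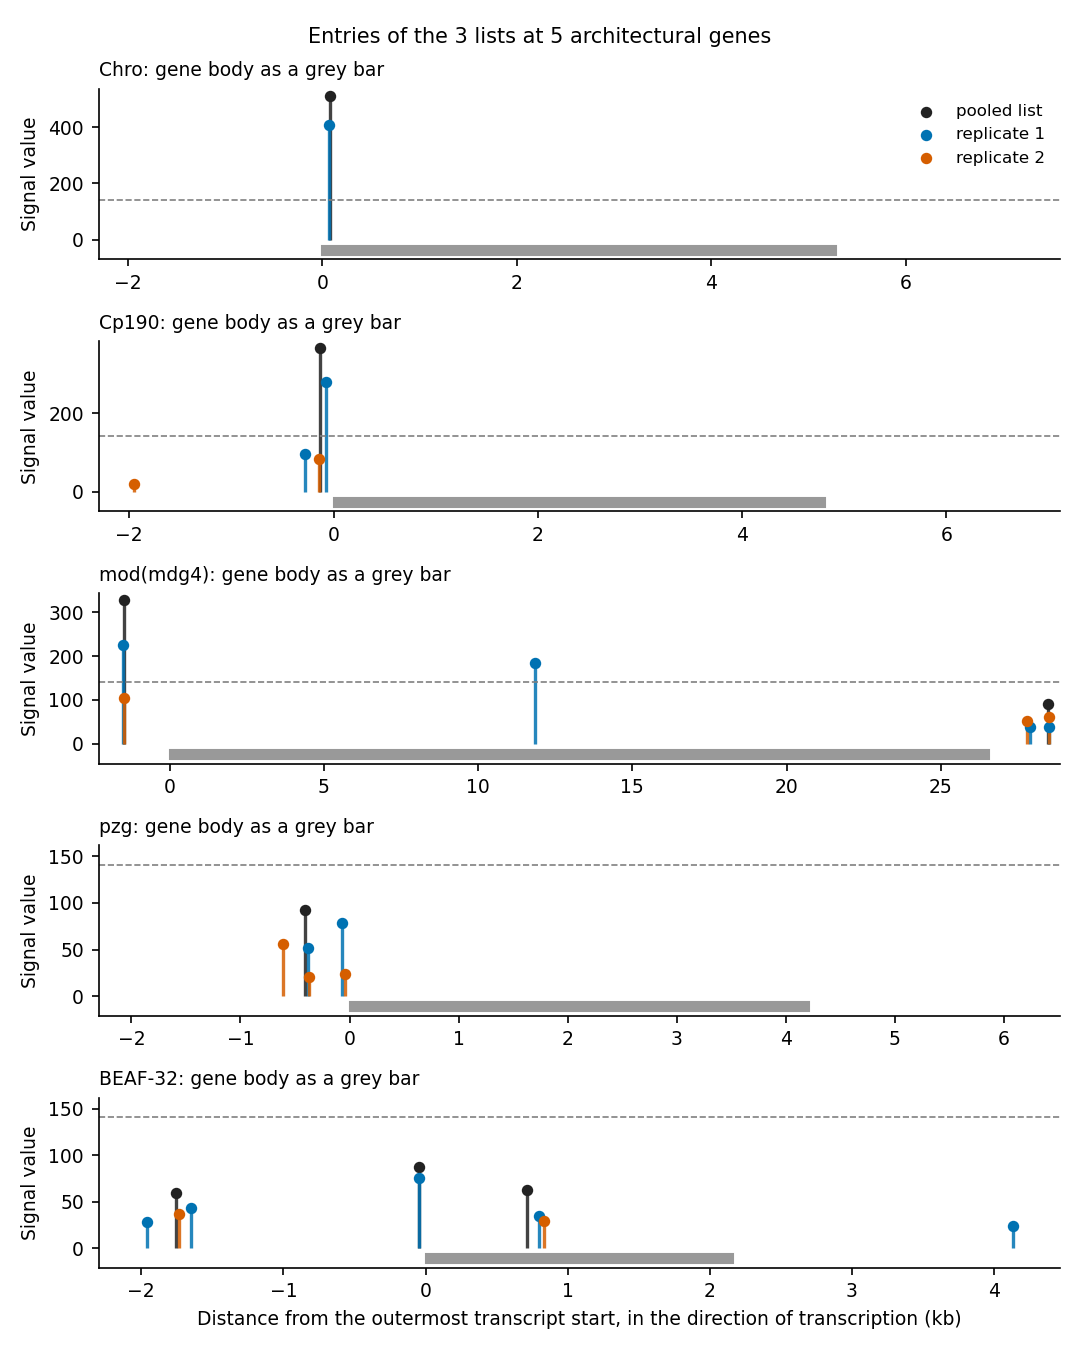
Signal value of every entry at 5 of the genes against distance in kb from the outermost transcript start, in the direction of transcription, with the gene body as a grey bar. Black marks the pooled list, blue replicate 1 and orange replicate 2, each on its own signal scale; the dashed line is the lowest signal of the thresholded list, 140.7, and applies to the pooled list. The strong entries at Chro and Cp190 stand at the start, that of mod(mdg4) stands 1486 bp upstream, and the blue entry within mod(mdg4) has no partner in the other lists.

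The DNA-binding insulator protein genes had no strong entry. The genome-wide share of genes with a pooled entry of any strength in the body or within 2 kb was 46.7%, and 5 of the 8 genes had one: Chro, Cp190, mod(mdg4), pzg and BEAF-32. BEAF-32 (FBgn0015602, 2R:14770469-14772630, plus strand) encodes a boundary element protein that binds near many housekeeping promoters. Its pooled entries had signals of 87.6, 62.3 and 59.5 at ranks 8001, 12857 and 13674. The strongest lay 46 bp upstream of the outermost start, the next in the 5′ UTR between later starts, and the third in an intron of Spred. Replicate 1 listed the first at the same summit, with a signal of 75.8 at rank 4387, and replicate 2 had no entry within 100 bp of it. The strongest entry of replicate 2 was the one in Spred, with a signal of 37.2 at rank 10877. Replicate 2 also listed an entry 1 bp from the start of the transcript BEAF-32-RB, with a signal of 29.1 at rank 15989, and replicate 1 had one 32 bp from it, with a signal of 34.4 at rank 13399. Of the entries at BEAF-32 starts, the one at the outermost start was thus listed in replicate 1 and the pooled list only.

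CTCF (FBgn0035769, 3L:7353578-7356713, minus strand), the fly counterpart of the vertebrate insulator protein, had no pooled entry. Replicate 1 listed a single entry in its coding exon, with a signal of 22.1 at rank 22831, where the lowest signal of that list was 17.0. The summit of this entry also lies in an exon of asRNA:CR45822, 95 bp from an annotated start of that antisense RNA gene. The nearest thresholded summit lay 4.078 kb from CTCF, with a signal of 272 at rank 1217.

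su(Hw) (FBgn0003567, 3R:14304455-14308589, minus strand), whose zinc finger protein binds the gypsy insulator, had no entry in any of the lists. vtd, described next, had none either. Having no entry in the pooled or either replicate list was common, at 39.2% of all protein-coding genes, beside these 2 of 8. The nearest pooled entry to su(Hw) lay 5.852 kb away and the nearest thresholded summit 20.582 kb away. Over all protein-coding genes the median distances were 2.553 kb and 15.461 kb, and 36.1% and 42.0% of genes lay farther away than su(Hw). The gene was thus somewhat farther from entries than the median gene, and not in the tail.

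vtd (FBgn0260987, 3L:27136525-27157999, plus strand) encodes the Rad21 kleisin of cohesin and lies in the pericentric heterochromatin of its arm. The last pooled summit on 3L lay at 22948708, 4.19 Mb short of vtd, and the last of replicate 1 lay 2.78 Mb short of it. Beyond the last pooled summit there were 39 protein-coding genes on 3L, all without a pooled entry. Only 12 of the 13945 protein-coding genes, vtd included, lay as far or farther from a pooled entry. The lack of a pooled entry at vtd is therefore shared with the other genes of that region, and whether entries could be listed in that region was not tested.

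Both replicates were set side by side as lists of equal length. Among the 3953 strongest entries of each, replicate 1 had summits at 3 of the 8 genes, beside 21.2% of all protein-coding genes, and replicate 2 at 2, beside 16.0%. The gene absent from replicate 2 was Chro. In the full lists, 6 of the 8 genes had an entry in replicate 1 and 4 in replicate 2, beside 49.8% and 51.2% of all protein-coding genes. All 3 summits at the 8 genes ranked higher in replicate 1 or were listed there alone, and this lean was also present across the genome for promoter peaks. Of the 1160 promoter summits matched in both replicates, 56.5% ranked higher in replicate 1, against 43.0% of the 1518 matched summits over 2000 bp from any start. Promoter summits lacked a match in replicate 2 in 7.73% of 1307 cases and in replicate 1 in 3.83%, and for the 1630 summits over 2000 bp from any start the shares were 4.79% and 2.21%, so promoter summits were unmatched more often in both. These shares describe 1 pair of replicates, and the cause of the lean in ranks was not tested.

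**Figure D3:**
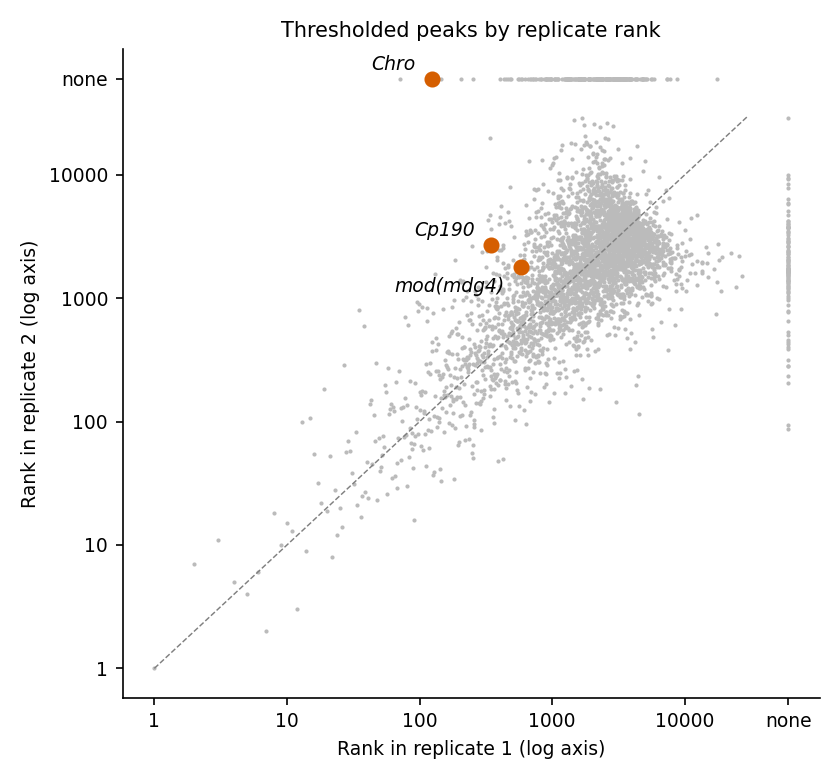
Rank of each thresholded peak in replicate 1 (horizontal) and replicate 2 (vertical), both on log axes, as grey points, with peaks unmatched in a replicate at "none" and equal ranks on the dashed line. The summits at Chro, Cp190 and mod(mdg4), in orange, lie above the line, and 1.75% of matched peaks had a larger rank ratio than Cp190.

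The genes most like Chro and Cp190 in their pair of promoter ranks were found by the distance between log2 ranks over the 2 replicates, with an unmatched summit set 1 rank past the end of the list. Ssl1 and CG4338 share the summits. Next to Chro came Arl1 and brm, which share 1 summit with a signal of 431 at ranks 422 in the pooled list and 205 in replicate 1, and CHMP2B, with a signal of 663 at ranks 132 and 71. The CHMP2B summit is the same peak as that given above as nearest to the start of Tcs5. Arl1, brm and CHMP2B were all unmatched in replicate 2, at distances of 0.71, 0.71 and 0.82. The measure gives all unmatched summits the same rank, so for Chro it favours genes that are also unmatched there. brm encodes the ATPase of the Brahma chromatin remodeller. Next to Cp190 came CG3437 and CG3552, which share 1 summit with a signal of 382 at ranks 320 and 2394 in the replicates, and bbx, with a signal of 341 at ranks 423 and 2572. Their distances were 0.21, 0.21 and 0.30.

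Sequence motifs were sought on both strands within 50 bp of each summit, and only Chro held one. CGATA, the core letters bound by BEAF-32, was found in the Chro window and in neither of the other 2. It occurred in 9.94% of all thresholded summit windows and in 11.3% of flanking windows. The GAGA element GAGAG was in none of the 3 windows and in 27.1% of all. The C-rich string CCCACCC, drawn from earlier results of these data, was in none of the 3 and in 10.7% of all summit windows, against 1.56% of flanking windows. The longer CCCACCCC, which contains it, was likewise in none and in 6.37% of all. TGCATA, core letters of su(Hw) sites, TATCGATA, the DRE element that contains CGATA, and GGTCACACT, the motif of the factor M1BP, were in none of the 3 and in 4.30%, 0.582% and 0.253% of all. With windows of 100 bp to either side, or the whole peak interval, the counts at the 3 summits were the same. The shares over all thresholded peaks rose with the window, for CGATA to 18.7% and 33.2%.

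The DRE letters were found in the promoters of most of the 8 genes. In promoters from 250 bp upstream to 50 bp downstream of the outermost start, TATCGATA occurred in 5 of the 8, those of CTCF, BEAF-32, Cp190, mod(mdg4) and vtd, beside 9.36% of all 13945 promoters. CGATA, which TATCGATA contains, occurred in 6 of 8 with pzg added, beside 47.4%. GGTCACACT was found at su(Hw) alone, beside 6.05%. The GAGA element was in none of the 8, beside 29.7%, and the su(Hw) core letters were also in none, beside 15.4%. The shorter and longer C-rich strings were likewise in none, beside 1.95% and 0.968%. Of the 5 genes with TATCGATA, Cp190 alone had a thresholded promoter summit, and the match there spans the transcript start, outside the window around the summit. This match is also outside the thresholded peak interval. It is inside the wider intervals of the replicate entries, 3R:15275234-15275481 in replicate 1 and 3R:15275142-15275621 in replicate 2. The matches of 4 genes are shown in capitals with 11 bases to either side, on the strand of the gene. The match lies 14 bp upstream of the start at CTCF (3L:7356716-7356745), across it at Cp190 (3R:15275227-15275256), 47 bp upstream at mod(mdg4) (3R:21377437-21377466) and 1 bp downstream at vtd (3L:27136515-27136544).
CTCF: accaatcgaacTATCGATAgctggcggtac
Cp190: tatcgcatggcTATCGATAgctgccgagcg
mod(mdg4): atattttaagcTATCGATAtattgtcactt
vtd: attttaaatgaTATCGATAatttgataaaa

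Other genes of chromosome architecture were counted by list. Of 37 such genes 7 had a thresholded summit in the body or within 2 kb, 18.9% beside 18.3% of all protein-coding genes, and 5 had one in a promoter, 13.5% beside 8.24%. The 8 genes and these 37 thus differed by few genes. Among 12 other DNA-binding insulator proteins only Trl, which encodes the GAGA factor, was counted, with 6 summits and the strongest signal of all these genes, 1195 at rank 19, and ranks of 17 and 32 in the replicates. Among 10 genes of cohesin and its regulators only pds5 was counted. Its signal was 303 at rank 988, it ranked 586 in replicate 1, and like Chro it had no match in replicate 2. Among 7 condensin genes only Cap-G was counted, with 170 at rank 2853 and no match within 100 bp in replicate 1. Replicate 1 did list 3 entries in or near Cap-G, the strongest with a signal of 110 at rank 2350. Of 8 insulator cofactors and interband partners 4 were counted. These were the longer genes of that list, from 6.948 kb at l(3)mbt to 122.124 kb at shep. The 4 not counted ran from 3.664 to 6.126 kb, and the median of all protein-coding genes was 2.166 kb. Trl, counted above, spans 13.121 kb. Whether length accounts for these counts was not tested. JIL-1, the kinase that works with Chro at interbands, had a signal of 484 at rank 328, and its ranks of 319 and 434 in the replicates were close together. l(3)mbt had 422 at rank 451, at a summit 96 bp from the start of CG5938 and 1946 bp from its own. shep, which encodes an RNA-binding protein that modulates gypsy insulators, had 320.5 at rank 870, and fs(1)h, the fly BET protein, had 278 at rank 1161.

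**Figure D4:**
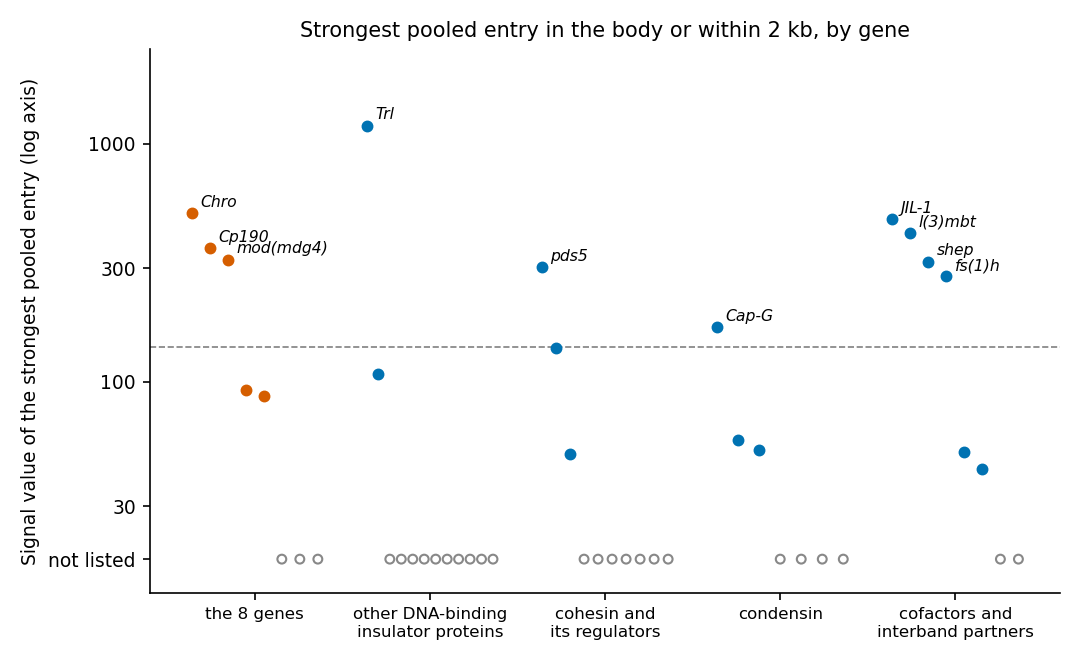
Signal value, on a log axis, of the strongest pooled entry in the body or within 2 kb of each gene, for the 8 genes (orange) and the 37 others by list (blue), with open circles for genes with no pooled entry. Names mark genes above the dashed line at 140.7, the lowest thresholded signal. Chro, Cp190 and mod(mdg4) lie within the range of the other genes above the line, which runs from Cap-G at 170 to Trl at 1195.

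The rule of 2 kb set how many summits were counted. The summit farthest from its gene inside this limit was that near mod(mdg4), 1486 bp from the body. The first summits outside were a second one at mod(mdg4), 3171 bp past its 3′ end with a signal of 300.3 at rank 1004, then those at CTCF, 4078 bp away, and at BEAF-32, 4441 bp away with a signal of 144 at rank 3792. Of the 3 summits inside the limit, that of Chro alone lay within a gene body.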

How the data were processed

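ChIP-seq of l(3)neo38-GFP was available as peak lists on dm6, 1 for each of 2 replicates, 1 for pooled alignments and 1 thresholded list; per the labels' file descriptions the entries were made from alignments and a control and passed to an irreproducible discovery rate (IDR) comparison. For the peak caller and the IDR cutoff, nothing is given in the sources used here. The signal of each entry and its −log10 q value are as deposited by the authors, as is the summit offset within the interval. All 3953 thresholded peaks held 1 deposited q value, so ranks follow the signal. Lists on dm3 were not used, since no dm3 annotation was used here. No reads were counted here, so depth is unknown.

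Summits were placed on Ensembl 115 gene models with Python 3.11.15, NumPy 2.4.6 and pandas 2.3.3. Of 30593 annotated start codons, 30540 read ATG in the genome sequence used (RefSeq, release 6 assembly), which checked the coordinates. Replicate entries were matched at the nearest summit within 100 bp. No test was made, because 1 group of 2 replicates leaves no comparison, and peaks and genes are not replicates. That the replicates came from separate embryo collections is taken from their label as biological replicates. The step that counts summits at genes and promoters was tested on simulated data. Matching of entries between replicates was not part of that test. The genes, lists and motifs were chosen with earlier results of these data known. Genes named in the text are the 8, the genes nearest their summits, up to 4 genes of each other list by signal, and the nearest genes in replicate ranks for the 2 strongest promoters. Tcs5, mir-34 and the pre-mod(mdg4) genes were named after their values were seen, as were the entries of replicate 1 inside mod(mdg4) and the replicate entries of pzg and CTCF. Of the names in the lists, 2 were matched through another symbol. Alternatives covered the threshold, each replicate's list, the gene and promoter windows, overlap in place of summits, match distance, motif window and RefSeq gene models.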

Additional observations from a re-analysis of the deposited data

How the results depend on the processing

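Of 57 values recomputed under alternatives, 44 stayed within 1.5 times and 13 did not. With each replicate's own strongest entries in turn, the 8 genes with a summit in the body or within 2 kb numbered 2 to 3, those with a promoter summit 1 to 2, and the summits 2 to 5, while of the 37 other genes 6 to 8 had a summit and 4 to 6 a promoter summit. The values without replicate 1 lack Chro, and those without replicate 2 add the entry inside mod(mdg4) and a second one at Cp190. With all pooled entries the counts were 5 genes, 4 promoters and 8 summits, and 14 and 10 of the other genes. With the gene body alone they were 1 gene, 1 summit and 4 other genes. Of all protein-coding genes, 91.1% had no thresholded summit in the body. With 5 kb the counts were 5 genes and 6 summits. The share over all protein-coding genes was not computed for 5 kb, and a wider window can only raise it. With a match distance of 50 bp, 1 of the 3 summits was matched in both replicates in place of 2, since the replicate 1 summit at Cp190 lies 59 bp away. The stronger part of the list, other promoter windows, overlap of intervals, motif windows and RefSeq gene models, the last chosen after seeing the data, changed no count by more than 1.5 times. The dm3 alternative was not run, since no annotation of that build was used. No paired analysis was possible because the replicates form 1 group. Depth is unknown, so a missing entry says only that none was listed. The lists hold 30000 entries each, so weaker entries were not seen.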
